A study of Mus musculus with 42 samples.

Results

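The hippocampus and the cerebellum were compared as the labels name them, in mice on the control diet without NaKtide. All libraries of those 2 groups were taken: 6 labelled hippocampus control and 5 labelled cerebellum control, 11 of the 42 libraries of the series. Polyadenylated RNA from mouse brain was sequenced to ask how western diet and NaKtide act on each region. NaKtide is a peptide derived from the sodium pump that blocks pump signalling through the kinase Src. The 11 libraries came from mice fed normal chow (11% fat) for 12 weeks. The other 31 libraries, which give a second measurement of the label difference and share in the estimate of the spread, came from the 3 remaining groups of each label: chow with NaKtide, western diet (42% fat), and western diet with NaKtide. NaKtide was switched on in transgenic mice by feed containing doxycycline at 300 mg/kg. The labels give no strain, age, sex or transgene promoter, and do not say whether the 11 control libraries came from transgenic animals or from mice fed doxycycline. The design text of the series speaks of liver and adipose tissue and of 60 samples, so the brain regions rest on the library labels.

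The hippocampus is a forebrain structure needed for forming memories, built from dentate granule cells and pyramidal cells of the CA fields that use glutamate. The cerebellum is a hindbrain structure that tunes movement, and most of its cells are small granule cells whose output is read by the inhibitory Purkinje cells. Because these cell types use different transcription factors, receptors and synaptic proteins, clean dissections of the regions differ in very many transcripts, and some granule and Purkinje markers, such as Gabra6 and Pcp2, are near absent outside the cerebellum.

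Totals over the 11 libraries ran from 5260461 to 7617731 counts, and 14817 to 16042 genes per library had at least 10 counts. Levels are given as CPM, each library's counts scaled to a common total with TMM factors, on which 1 count was worth 0.122 to 0.203 CPM. RNA makeup was compared by exact permutation tests over all 462 arrangements of the 11 libraries, taking both tails. The 13 protein genes of the mitochondrial genome took 9.07% ± 1.25 (SD, n = 5) of counts under the cerebellum label and 6.41% ± 0.837 (SD, n = 6) under the hippocampus label (exact p = 0.0108, adjusted over 5 quantities 0.0180). Pseudogenes took 14.5% ± 1.74 and 11.4% ± 0.880 (exact p = 0.0108, adjusted 0.0180). The 100 most counted genes took 27.3% ± 2.47 and 22.4% ± 1.14 (exact p = 0.00649, adjusted 0.0180). Hippocampus control 5 and 6 were far closer to each other (r = 0.990 over log2 CPM of genes tested) than any other pair under either label, and they alone among the 11 had more than 1 Xist count, at 10.7 and 9.38 CPM beside Y-linked transcripts. Their counts differed by more than counting noise (mean chi-square 2.45 per gene, against at least 9.03 for every other pair), which does not show that they are separate animals. They were kept as 2 samples as labelled, and with both summed the count of genes called between the labels was 5. Whether each library is a different animal is not stated in the labels, and a p-value here reflects library-to-library spread, which may be technical.

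The labels were checked first against the defining genes of each region. Of the 5 libraries labelled cerebellum, 1 held Gabra6 and Pcp2 at a high level. In cerebellum control 2 both were lower but still above every hippocampus library. Gabra6, the GABA-A receptor subunit of cerebellar granule cells (chr11:42306437-42321072, GRCm38), stood at 20.3 CPM in cerebellum control 1, 1.38 in control 2, 0.176 in control 3, 0 in control 4 and 0.279 in control 5. Under the hippocampus label it ran from 0 to 0.335 CPM with a median of 0. Pcp2, a Purkinje cell protein, stood at 107, 5.54, 1.06, 0.341 and 0.140 CPM in cerebellum control 1 to 5, and at 0 to 0.612 CPM in the hippocampus libraries, median 0.142. Control 1 was thus the one library with both at a high level, and the groups overlapped for both genes.

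Cbln3, a synaptic organiser of cerebellar granule cells, followed the same order, at 78.0, 5.14, 1.23, 0.512 and 0.279 CPM against 0.168 to 1.10 (median 0.699) under the hippocampus label. None of the 11 granule cell markers and none of the 8 Purkinje markers tested was called between the labels. Their median log2 fold changes, hippocampus minus cerebellum label, were -0.23 and -0.76, beside 0.01 over all 17088 genes tested. The summed level of the granule list ran from 92.8 to 514 CPM under the cerebellum label and from 84.5 to 215 CPM under the hippocampus label. The Purkinje list ran from 156 to 516 CPM (median 213) and from 271 to 525 CPM (median 468); it holds Itpr1 and Calb1, which forebrain neurons also make.

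The dentate granule cell transcripts Dsp and C1ql2 stood out in 2 of the 6 libraries labelled hippocampus, but Prox1, on the same list, did not. Dsp, a desmosomal protein that marks dentate granule cells in the forebrain, was at 12.0 CPM in hippocampus control 2 and 14.4 in control 4. It was at or under 0.544 CPM in the other 4 (median of the 6 libraries 0.394), and at 0.203, 0.396, 0.352, 0 and 0.279 CPM in cerebellum control 1 to 5. C1ql2, a secreted protein of dentate mossy fibre synapses, was at 89.6 and 90.0 CPM in the same 2 libraries and between 1.88 and 8.02 CPM in the other 4. In cerebellum control 1 to 5 it was at 11.8, 22.5, 19.0, 32.4 and 1.26 CPM, so 4 libraries labelled cerebellum held more of it than 4 libraries labelled hippocampus. Prox1 was highest in cerebellum control 3, at 26.03 CPM, against 21.02 and 25.3 CPM in hippocampus control 2 and 4 (log2 fold change 0.16). Of the 9 dentate markers tested, 9 had positive fold changes (median log2 0.91), and none was called.

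Pyramidal cell markers overlapped between the labels. Of the 12 tested, 9 had positive fold changes (median log2 0.72) and none was called, and their summed level was 271 to 661 CPM under the cerebellum label and 559 to 841 CPM under the hippocampus label. Neurod6, a transcription factor of cortical and hippocampal pyramidal neurons chosen after its values were seen, stood at 25.2, 1.58, 1.06, 5.12 and 56.9 CPM in cerebellum control 1 to 5 and between 18.6 and 73.8 CPM (median 35.9) under the hippocampus label. Cerebellum control 5 and 1 lay inside the hippocampus range, and cerebellum control 2 to 4 lay below it. Of the listed markers, Wfs1 and Spink8 had log2 fold changes of 0.55 and 1.39, and Fibcd1 went the other way at -0.18. Fibcd1 stood at 34.1 and 36.9 CPM in cerebellum control 1 and 5. It was at 59.5 CPM in hippocampus control 2 and at 9.09 to 18.8 CPM in the other libraries of that label.

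The vesicular glutamate transporters also overlapped between the labels. Slc17a7 (VGLUT1) stood at 768, 45.3, 189, 249.6 and 1681 CPM in cerebellum control 1 to 5 and from 561 to 1907 CPM (median 1100.1) under the hippocampus label. Slc17a6 (VGLUT2) stood at 66.2, 85.2, 68.4, 118 and 25.4 CPM against 5.90 to 59.5 (median 34.03). Neither was called (adjusted p = 0.336 and 0.290, edgeR).

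Several libraries carried defining transcripts of regions that neither label names. Cerebellum control 2 held the serotonin neuron genes and, with control 4, midbrain dopamine genes. Hcrt, the orexin precursor of the lateral hypothalamus, was at 376 CPM in cerebellum control 4, at 56.3 and 57.9 CPM in hippocampus control 5 and 6, at 4.69 CPM in hippocampus control 4, and at or under 0.989 CPM in the other 7 libraries. Pmch, the melanin-concentrating hormone precursor of the same area, reached 304 CPM in cerebellum control 4 and 78.0 and 77.1 CPM in hippocampus control 5 and 6. Adora2a, the adenosine receptor of striatal projection neurons, was at 177 and 136 CPM in hippocampus control 3 and 4, at 82.3 and 71.5 CPM in hippocampus control 5 and 6, and at 74.2 CPM in cerebellum control 5. It was at or under 28.1 CPM in the other 6 libraries, and all 13 striatal markers had positive fold changes (median log2 1.30) with no call. Prkcd, abundant in thalamic neurons, reached 160 CPM in cerebellum control 3, and hippocampus control 4 held 186 CPM. Ttr, made by the choroid plexus, was at 2510 and 4915 CPM in hippocampus control 2 and 4 and at 1686 CPM in cerebellum control 3, against 6.22 CPM in hippocampus control 1. The other 7 libraries lay between 22.1 and 791 CPM. Each of these 5 genes was thus high in some libraries of both labels.

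**Figure D1:**
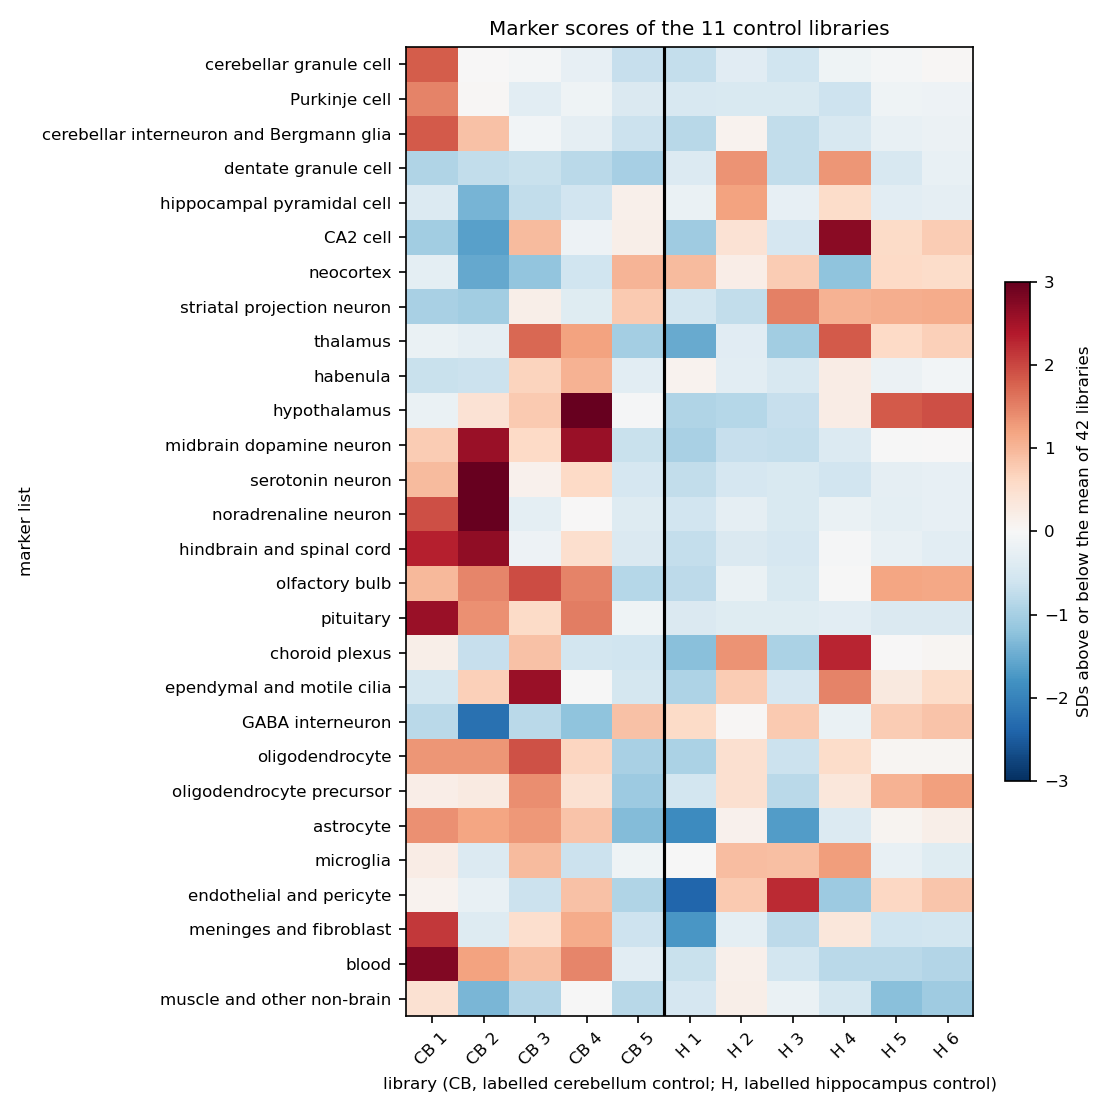
Score of each marker list (mean log2(CPM + 1) of its members) in the 11 control libraries, as the number of SDs above (red) or below (blue) the mean of all 42 libraries, with 1 column per library. The 3 cerebellar lists are high in CB 1, the serotonin and noradrenaline lists in CB 2, the hypothalamus list in CB 4, the dentate list in H 2 and H 4, and CB 5 is close to the H columns.

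Likeness over the whole transcriptome did not follow the labels in every library. Correlations of log2 CPM between libraries had a median of 0.954 (0.895 to 0.969, 10 pairs) within the cerebellum label, 0.961 (0.916 to 0.990, 15 pairs) within the hippocampus label and 0.927 (0.865 to 0.980, 30 pairs) between them. These are descriptions over genes, which are not independent. The nearest of the 11 libraries to cerebellum control 5 was hippocampus control 3 (r = 0.980), and the nearest to hippocampus control 1 and 3 was cerebellum control 5. Cerebellum control 1 to 4 were each nearest to another of these 4.

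Between the labels, 376 genes were called by edgeR's quasi-likelihood test (Benjamini-Hochberg adjusted p under 0.05), 2.2% of the 17088 tested. Higher levels under the hippocampus label were called for 164 genes (0.96%) and lower levels for 212 (1.24%), and 4956 genes had an unadjusted p under 0.05. The 8 largest named rises were those of Nr4a1, Zkscan16, Arc, Fos, Hectd2, Junb, Pcdhga12 and Got2-ps1, and the 8 largest named falls those of Slc6a4, En1, Gh, Tph2, Fev, Slc6a5, Prl and Fabp4. The median change was 0.88 on the log2 scale among the higher genes and -0.87 among the lower, with at least a 2-fold change in 61 and 86 of them. Every hippocampus library lay above every cerebellum library for 213 of all genes tested (1.25%), 70 of them called, and below for 197 (1.15%), 60 of them called.

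With only the 2 compared groups in the fit, and so without the spread of the other 31 libraries, edgeR called 1 gene, with 4548 at an unadjusted p under 0.05. The number called also depended on single libraries. It was 4 without cerebellum control 1, 1 without control 2, 33 without control 3, 7 without control 4 and 4334 without control 5. Under the hippocampus label it was 7 without control 1, 194 without control 2, 5 without control 3, 2503 without control 4, 6 without control 5 and 12 without control 6. The 376 genes were picked on these same libraries, so likeness between the fits was largely set beforehand. All 376 genes kept their direction in these 11 fits, and 374 had an unadjusted p under 0.05 in each of them. Pomc was the only gene of the 376 called in every one.

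**Figure D2:**
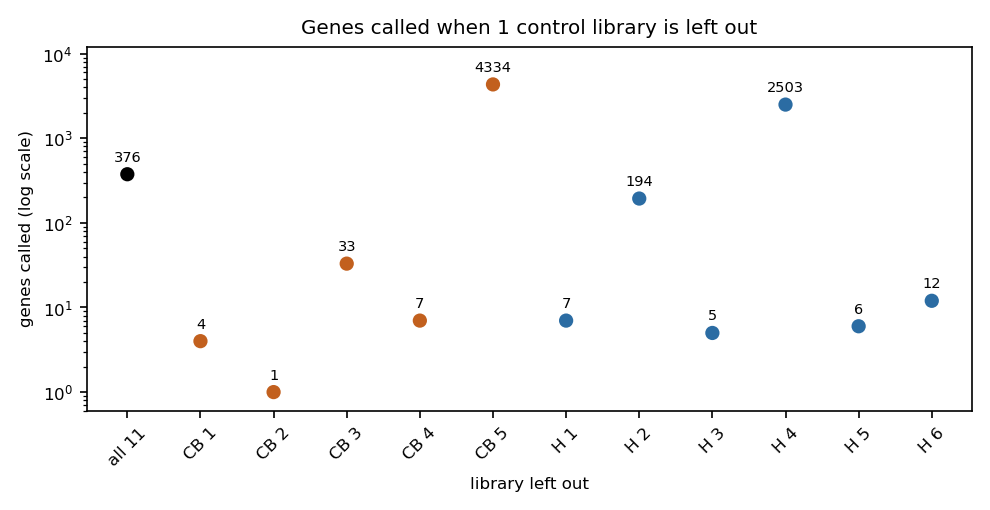
Number of genes called between the labels (y axis, log scale) with all 11 control libraries (black) and without each library in turn (orange, cerebellum label; blue, hippocampus label). The count is 376 with all libraries, 4334 without CB 5, 2503 without H 4 and 1 without CB 2.

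The count was 0 without cerebellum control 1, 2 and 4, the libraries with the most pituitary, serotonin or hypothalamic transcripts. That fit kept few libraries under the cerebellum label, and the count also fell without most single libraries. The part of those transcripts in the loss of calls was thus not tested. All 376 genes kept their direction in that fit, and 170 of them also had an unadjusted p under 0.05 (edgeR). They were picked on libraries that include those of this fit, so this is no independent support.

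Immediate-early genes are switched on within minutes of neuronal firing or handling and encode transcription factors and synaptic regulators. Of the 15 on the list, 5 were called higher under the hippocampus label, beside 0.96% of all genes tested, and none was called lower. All 15 fold changes were positive, with a median of 2.03 on the log2 scale beside 0.01 over all genes. Nr4a1, an orphan nuclear receptor (chr15:101254269-101274795, GRCm38), stood at 12.0, 5.14, 12.0, 6.996 and 24.6 CPM in cerebellum control 1 to 5 and at 35.7 to 134 CPM (median 73.2) in the 6 hippocampus libraries. The groups did not overlap, and the log2 fold change was 2.63 (SE 0.63, adjusted p = 0.0353, edgeR). Arc, a postsynaptic protein that removes AMPA receptors, stood at 34.9, 17.2, 36.1, 15.2 and 23.8 CPM against 39.5 to 304 CPM (median 132). Again no library overlapped, with the highest value in hippocampus control 1 and the lowest of the 6 in hippocampus control 4 (log2 fold change 2.51, SE 0.66, adjusted p = 0.0437, edgeR).

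Fos, the founding AP-1 subunit, stood at 8.12, 4.15, 2.81, 3.24 and 7.13 CPM against 6.70 to 55.8 CPM (median 27.1). Only hippocampus control 4, at 6.70 CPM, fell inside the cerebellum range (log2 fold change 2.48, SE 0.60, adjusted p = 0.0353, edgeR). Junb, another AP-1 subunit, stood at 22.9, 9.69, 14.9, 15.02 and 34.5 CPM against 46.4 to 166 CPM (median 82.2), and Btg2, an antiproliferative cofactor, at 3.86, 4.55, 3.52, 6.48 and 7.27 CPM against 7.96 to 36.8 CPM (median 18.0). Neither overlapped between the groups. Their log2 fold changes were 2.16 (SE 0.52) and 1.92 (SE 0.49), with adjusted p of 0.0355 and 0.0390 by edgeR.

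The 10 members not called had positive fold changes too, and 3 of them are given here, chosen after their values were seen. Dusp1, a phosphatase that shuts off MAP kinases, was at 7.91 to 11.8 CPM under the cerebellum label and at 12.9 to 55.7 CPM (median 26.8) under the hippocampus label, without overlap (adjusted p = 0.0547, edgeR). Npas4, which responds to calcium influx, was at 3.45 to 6.68 CPM against 4.65 to 56.5 CPM (median 15.3). Its high values were in hippocampus control 1, 5 and 6. Egr3 stood at 51.6 CPM in cerebellum control 5 and at or under 8.53 CPM in the other 4, against 22.1 to 103 CPM under the hippocampus label. The 5 calls held without cerebellum control 5, hippocampus control 2 or hippocampus control 4 and were lost without any other single library, with adjusted p of up to 0.183 by edgeR. The summed level of the 15 genes ran from 110.0 to 396 CPM under the cerebellum label and from 359.6 to 1365 CPM under the hippocampus label.

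**Figure D3:**
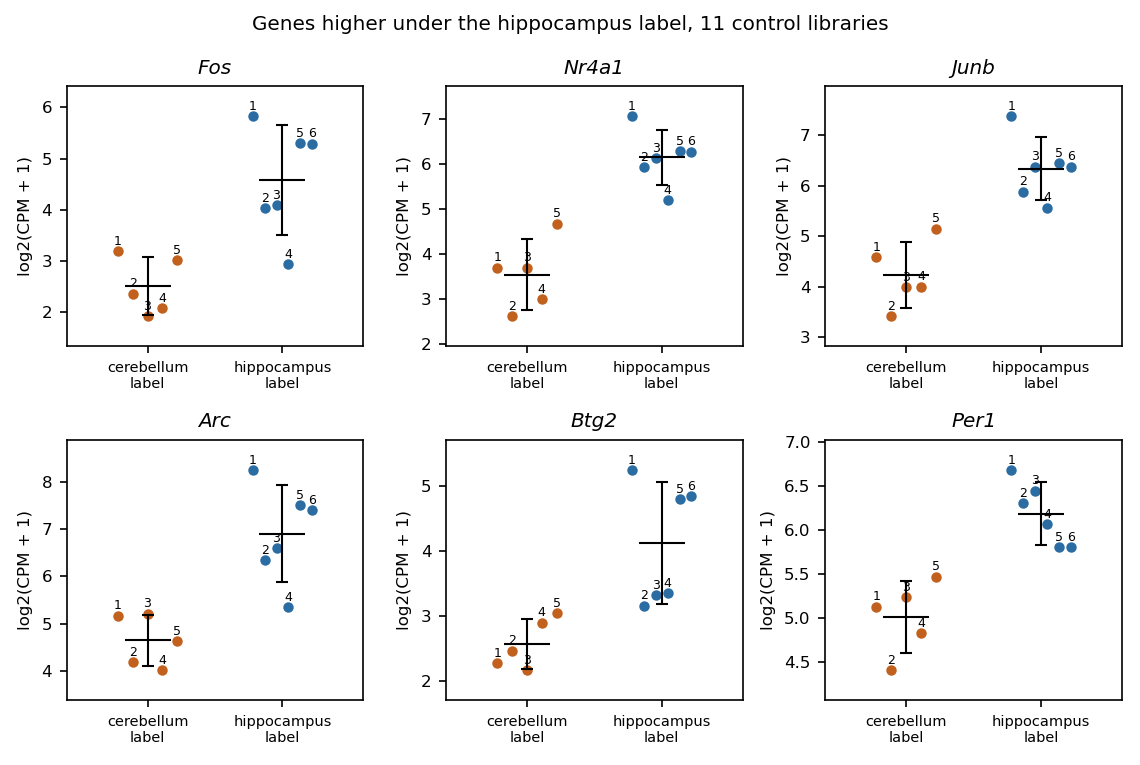
Level of 6 genes called higher under the hippocampus label, as log2(CPM + 1) on the y axis of each panel, with 1 point per library, numbered as in its label; the bar and whiskers give the mean and SD of each group (n = 5 and 6). Nr4a1, Junb, Arc, Btg2 and Per1 do not overlap between the labels, and for Fos H 4 lies within the cerebellum range.

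The start regions of these genes are shown because 5 of them moved together and because the cyclic AMP response element is the best known control site of the family. Matches to its half-site, the letters TGACG on either strand, are in capitals in the 150 bases before the start of each gene (RefSeq, GRCm38.p6, 5′ to 3′ on the gene's strand). The start is that of RefSeq's entry, which for Nr4a1 lies inside the GENCODE span given above, since that span also holds transcripts with an earlier start. Arc is named only.
Fos, chr12:85473740-85473889, plus strand: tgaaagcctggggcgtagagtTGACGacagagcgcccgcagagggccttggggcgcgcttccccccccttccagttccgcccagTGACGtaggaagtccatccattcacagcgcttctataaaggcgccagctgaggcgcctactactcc
Nr4a1, chr15:101266696-101266845, plus strand: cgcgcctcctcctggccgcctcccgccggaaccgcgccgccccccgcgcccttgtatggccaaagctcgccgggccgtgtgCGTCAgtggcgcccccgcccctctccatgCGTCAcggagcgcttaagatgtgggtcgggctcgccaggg
Junb, chr8:84978749-84978898, minus strand: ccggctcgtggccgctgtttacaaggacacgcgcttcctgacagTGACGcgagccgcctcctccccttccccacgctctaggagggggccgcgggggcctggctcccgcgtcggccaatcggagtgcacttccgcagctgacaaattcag
Btg2, chr1:134079156-134079305, minus strand: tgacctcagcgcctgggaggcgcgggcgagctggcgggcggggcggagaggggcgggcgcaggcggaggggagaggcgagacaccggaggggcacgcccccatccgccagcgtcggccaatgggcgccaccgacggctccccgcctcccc
The half-site occurred 2 times in the Fos window, 2 times in Nr4a1, 1 time in Junb and 0 times in Btg2. It occurred in 13.3% of the 32851 promoter windows of this length. The serum response CArG box was in none of the 4 windows and in 0.916% of all. A match is a run of letters and says nothing of binding in these libraries.

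Other genes were higher under the hippocampus label. Among 20 synaptic plasticity genes, Arc and Camk2b were called, beside 0.96% of all genes called higher, and 18 fold changes were positive (median log2 0.48). Camk2b, a subunit of the calcium/calmodulin kinase of the postsynaptic density, stood at 414, 311, 364, 420 and 760 CPM in cerebellum control 1 to 5 and at 727 to 927 CPM (median 825) in the hippocampus libraries. Cerebellum control 5 was the only one of its group inside the other range (log2 fold change 0.86, SE 0.24, adjusted p = 0.0487, edgeR). The call held only without cerebellum control 5 or hippocampus control 4 among the single libraries left out, with adjusted p of up to 0.204 elsewhere. The same list holds Camk2a, Nrgn and other forebrain-rich genes, and the forebrain transcription factors had positive fold changes in 15 of 18 cases with no call (median log2 1.07).

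Among further calls, chosen after their values were seen, were 3 genes of the circadian clock; no clock list was tested, and other clock genes were not counted. Per1, a repressor of the circadian loop that also responds to activity, stood at 33.9, 20.2, 36.6, 27.3 and 43.2 CPM against 54.6 to 101 CPM (median 71.9), with no overlap (log2 fold change 1.19, SE 0.29, adjusted p = 0.0364, edgeR). Nr1d1, the REV-ERB alpha repressor, stood at 52.6, 33.2, 55.2, 47.1 and 67.6 CPM against 70.2 to 123 CPM (median 97.8), also without overlap (log2 fold change 0.89, SE 0.21, adjusted p = 0.0353). Tef, a clock output factor, stood at 125 to 199 CPM against 181 to 265 CPM (median 241, log2 fold change 0.60, adjusted p = 0.0459). The Per1 and Nr1d1 calls held without cerebellum control 5 or hippocampus control 2 or 4, the Tef call without cerebellum control 5 or hippocampus control 4 (adjusted p of up to 0.204 in the others, edgeR). The labels give no time of day, so it cannot be told apart from the labels.

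The remaining genes named among the largest rises have no common theme here. Zkscan16, a zinc finger protein, stood at 0.396 to 2.05 CPM under the cerebellum label and at 2.51 to 10.5 CPM (median 6.90) under the hippocampus label (log2 fold change 2.54, SE 0.66, adjusted p = 0.0404, edgeR). Hectd2, a ubiquitin ligase, stood at 0.203 to 1.12 CPM against 1.47 to 5.03 CPM (log2 fold change 2.21, adjusted p = 0.0404). Pcdhga12, a protocadherin whose last exons are shared with the other genes of its cluster so that reads can be split among them, stood at 0 to 2.096 CPM against 2.18 to 6.37 CPM (log2 fold change 1.98, adjusted p = 0.0351). All 3 were low in both groups and did not overlap. Got2-ps1 and Akt2-ps, processed pseudogenes that share reads with their parent genes, had log2 fold changes of 1.97 and 1.40 (adjusted p = 0.0337 and 0.0298) and are uncertain for that reason. Pseudogenes made up 15.2% of the higher genes, 9.43% of the lower ones and 11.5% of all tested.

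Rbm12b1, an RNA-binding protein gene, had one of the smallest p among the rises. It stood at 4.26, 2.18, 2.64, 3.58 and 5.45 CPM in cerebellum control 1 to 5 and at 5.03 to 11.6 CPM (median 9.72) under the hippocampus label, where only control 4 lay inside the cerebellum range. Its log2 fold change was 1.32 (SE 0.24, adjusted p = 0.0121, edgeR), and it was called without each single library but cerebellum control 2 (adjusted p = 0.0654).

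Pituitary hormone transcripts were lower under the hippocampus label. Of the 10 genes on the pituitary list 5 passed the filter on low counts, and 3 of these, Gh, Prl and Pomc, were called. Of all genes tested 1.24% were called lower. Gh, growth hormone (chr11:106300271-106301865, GRCm38), stood at 197, 43.9, 18.6, 68.6 and 2.93 CPM in cerebellum control 1 to 5 and at 0.957, 0.450, 1.88, 0, 0.245 and 0 CPM in hippocampus control 1 to 6. The groups did not overlap, although cerebellum control 5 was close to hippocampus control 3. The log2 fold change was -6.75 (SE 1.32, adjusted p = 0.0282, edgeR). Prl, prolactin, stood at 31.1, 7.12, 2.46, 11.6 and 0.279 CPM against 0 to 0.402 CPM (median 0.129), with cerebellum control 5 inside the hippocampus range (log2 fold change -5.82, SE 1.35, adjusted p = 0.0351).

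Pomc, the precursor of ACTH and beta-endorphin made in pituitary corticotropes and in neurons of the arcuate hypothalamus, had the smallest p of all genes. It stood at 102, 23.1, 7.21, 54.3 and 3.49 CPM in cerebellum control 1 to 5 and at 1.47 to 4.21 CPM (median 2.77) under the hippocampus label. Again cerebellum control 5 lay inside the hippocampus range, and the other 4 lay above it. By edgeR the difference was -3.70 on the log2 scale (SE 0.60, adjusted p = 0.00596). Over the 11 fits that left out 1 library, the adjusted p of Pomc ran from 0.000287 to 0.0443 (edgeR). Without cerebellum control 1, 2 and 4 its log2 fold change was -0.85 (adjusted p = 0.995, edgeR). These libraries held the most Pomc of their label, so their removal had to shrink the difference. Only cerebellum control 3 and 5 remained in that group.

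Levels of Gh, Prl and Pomc followed the same order of libraries, control 1, 4, 2, 3 and 5 of the cerebellum label. The Gh call held without cerebellum control 3, 4 or 5 or hippocampus control 2 or 4, and the Prl call without cerebellum control 3 or 5 or hippocampus control 2 or 4 (adjusted p of up to 0.0735 and 0.149 without the others). Pou1f1, a pituitary transcription factor, had 0 counts in every hippocampus library and 0.140 CPM in cerebellum control 5 alone, the cerebellum library with the least Gh. Fshb, Cga and Pitx1 were also at 0 throughout the hippocampus label, whereas none of the 10 listed genes was at 0 throughout the cerebellum label. The summed level of the 10 genes is carried by Chgb, which neurons also make, and ran from 262 to 911 CPM under the cerebellum label and from 425 to 724 CPM under the hippocampus label. The part of pituitary tissue in these differences was not tested. In bulk libraries, fewer cells of a type and less RNA per cell cannot be told apart.

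The start region of Prl is printed because it carries the site family read by POU1F1, the pituitary factor that drives both Gh and Prl. Capitals mark the letters ATGNATA on either strand, where N is any base. Gh is named only.
Prl, chr13:27057420-27057569, plus strand: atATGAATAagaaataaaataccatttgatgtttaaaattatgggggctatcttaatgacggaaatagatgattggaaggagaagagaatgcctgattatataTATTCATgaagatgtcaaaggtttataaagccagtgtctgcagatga
These letters occurred 2 times in the Prl window and in 4.17% of the 32851 promoter windows.

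Serotonin neuron genes were lower under the hippocampus label, and 1 library carried most of the level. Tph2, the rate-limiting enzyme of serotonin synthesis in neurons (chr10:115078641-115185022, GRCm38), stood at 15.03, 310, 1.58, 0.853 and 0.978 CPM in cerebellum control 1 to 5 and at 0 to 1.201 CPM (median 0.659) under the hippocampus label. Cerebellum control 4 and 5 lay inside the hippocampus range, and control 2 was far above the rest. The log2 fold change was -6.53 (SE 1.40, adjusted p = 0.0314, edgeR). Slc6a4, the serotonin transporter, stood at 5.08, 161, 0.528, 0 and 0 CPM and had 0 counts in all 6 hippocampus libraries. Its mean under the cerebellum label was at least 465-fold the floor of 3 counts over the hippocampus group (adjusted p = 0.0353 with cerebellum control 2 included, edgeR). Without cerebellum control 2 that mean was at least 19.6-fold the floor, a ratio that carries no test.

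Fev, the transcription factor of serotonin neurons, stood at 2.64, 34.01, 0.352, 0.341 and 0.140 CPM, against 3 counts in all over the hippocampus label (adjusted p = 0.0353, edgeR). Of the 8 genes on the list these 3 were called (median log2 fold change -3.87), where 1.24% of all genes tested were called lower. Without cerebellum control 2 none of the 3 was, the adjusted p reaching 0.284 over the single libraries left out. The summed level of the list was 22.9 to 685 CPM under the cerebellum label and 15.8 to 36.0 CPM under the hippocampus label.

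Genes of the midbrain and hindbrain went the same way in fewer calls. En1, a homeobox factor of the midbrain-hindbrain border, stood at 2.84, 31.8, 1.58, 10.6 and 0 CPM in cerebellum control 1 to 5 and had 1 count in all under the hippocampus label (adjusted p = 0.0351, edgeR). Slc6a5, the glycine transporter of brainstem, spinal and Golgi neurons, stood at 14.4, 50.2, 0.352, 0.683 and 0.140 CPM against 0 to 0.300 CPM (median 0.148, adjusted p = 0.0448). Th and Slc6a3, the synthetic enzyme and the transporter of dopamine neurons, peaked in cerebellum control 4 at 183 and 157 CPM and were not called (adjusted p = 0.0736 and 0.0701, edgeR). Dbh, the noradrenaline enzyme, stood at 8.12 and 23.9 CPM in cerebellum control 1 and 2 and at or under 1.17 CPM in the other 9 libraries (adjusted p = 0.0547).

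Of the 20 patterning factors of midbrain, hindbrain and cerebellum that were tested, En1 alone was called, 17 fold changes were negative, and the median was -2.004 on the log2 scale. The En1 call was lost without cerebellum control 1, 2 or 4 or hippocampus control 1, 3, 5 or 6, and the Slc6a5 call held only without cerebellum control 5 or hippocampus control 4 (adjusted p of up to 0.163 and 0.212, edgeR). Calca, the CGRP precursor found in brainstem motor and parabrachial neurons, was chosen after its values were seen: it stood at 22.7, 27.5, 7.56, 8.02 and 1.82 CPM against 0.478 to 2.08 CPM (median 1.21, log2 fold change -3.46, SE 0.79, adjusted p = 0.0351). Nxph4, a neurexin ligand, stood at 44.1, 79.3, 5.10, 34.3 and 20.1 CPM against 4.05 to 12.1 CPM (median 8.24, log2 fold change -2.17, SE 0.57, adjusted p = 0.0423). Cerebellum control 3 lay inside the hippocampus range for Nxph4, and cerebellum control 5 did for Calca.

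Hemoglobin transcripts were also lower under the hippocampus label. All 4 hemoglobin genes on the blood list were called, with Alas2, the erythroid heme enzyme, not passing (adjusted p = 0.0529), and the median log2 fold change of the 5 was -1.77. Calls in this direction made up 1.24% of all genes tested. Hbb-bs, an adult beta globin (chr7:103826534-103828096, GRCm38), stood at 1435, 662, 648, 788 and 227 CPM in cerebellum control 1 to 5 and at 148 to 309 CPM (median 177) under the hippocampus label. Cerebellum control 5 lay inside the range of the other group (log2 fold change -1.93, SE 0.46, adjusted p = 0.0353, edgeR). Hbb-bt had a log2 fold change of -2.11 (SE 0.50) and Hba-a1 of -1.73 (SE 0.47). The globin copies are near identical, so reads can be split among them, and mature red cells hold these transcripts. The summed level of the 7 blood genes was 946 to 5940 CPM under the cerebellum label and 643 to 1431 CPM under the hippocampus label, and its part in other differences was not tested.

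Col3a1, a fibrillar collagen of meninges and vessels, stood at 4.26, 2.18, 3.87, 8.36 and 1.82 CPM against 0.503 to 1.90 CPM (log2 fold change -2.13, SE 0.59, adjusted p = 0.0480, edgeR), and was the single call among 12 meningeal genes (median -1.12). Fabp4, a fatty acid carrier of fat cells and capillaries, stood at 4.87, 0.396, 6.16, 142 and 5.17 CPM against 0 to 1.35 CPM (median 0.558, log2 fold change -5.64, adjusted p = 0.0375). Its level came mostly from cerebellum control 4, where Cidec, a lipid droplet protein of fat cells chosen after its values were seen, was also highest at 23.4 CPM. The Hba-a1, Hbb-bs, Hbb-bt and Fabp4 calls held without cerebellum control 5 or hippocampus control 2 or 4, the Col3a1 call without cerebellum control 5 or hippocampus control 4 (adjusted p of up to 0.207 without the others).

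**Figure D4:**
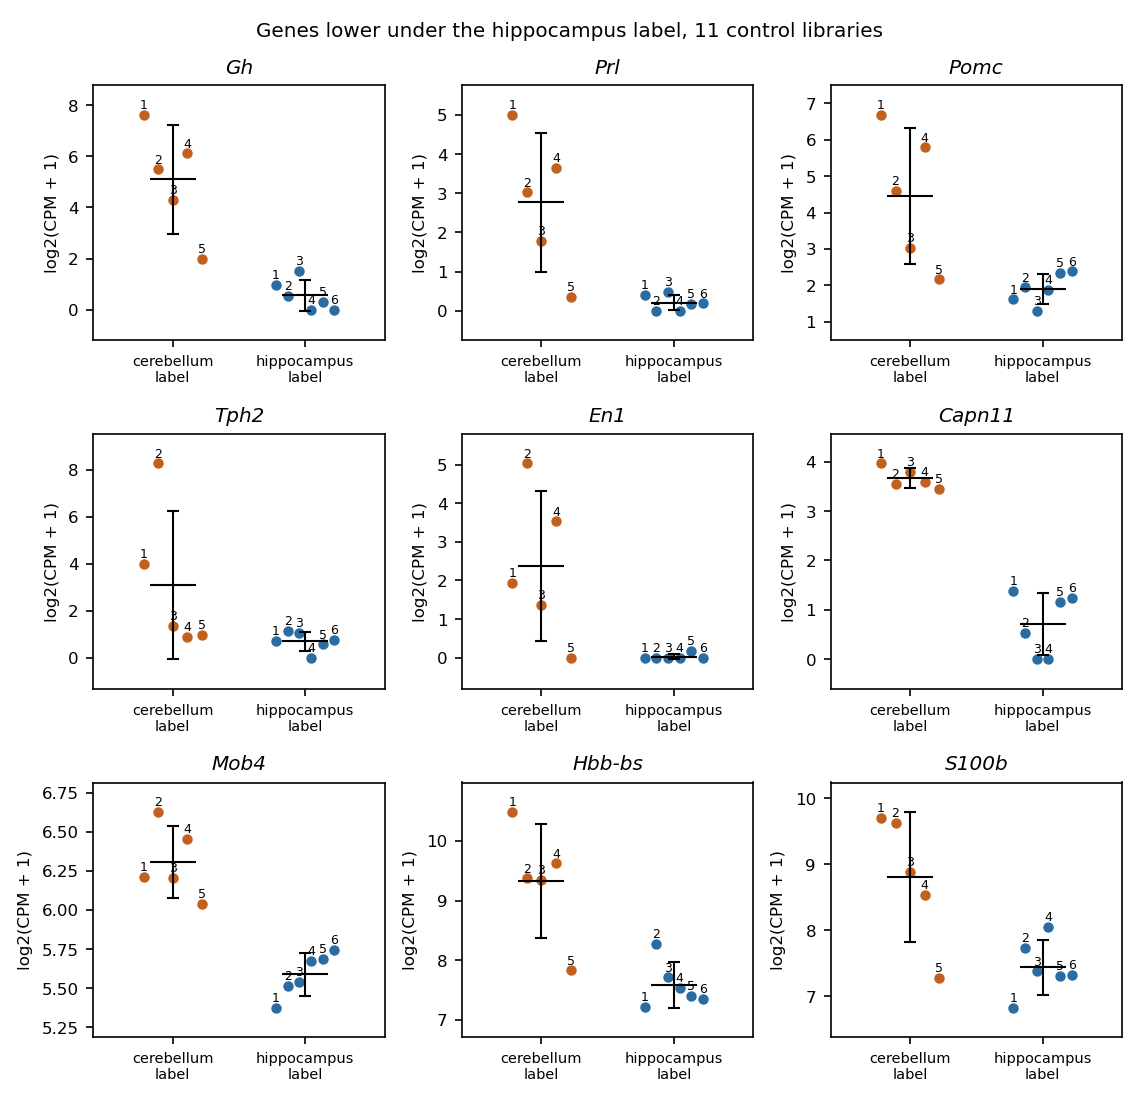
Level of 9 genes called lower under the hippocampus label, as log2(CPM + 1) on the y axis of each panel, with 1 numbered point per library; the bar and whiskers give the mean and SD of each group (n = 5 and 6). Cerebellum control 5 lies with or near the hippocampus libraries in every panel but those of Capn11 and Mob4, where all 5 cerebellum libraries lie above all 6 hippocampus libraries.

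Few genes of the glial, ribosomal and respiratory lists were called, all of them lower under the hippocampus label. S100b, a calcium-binding protein of astrocytes and some oligodendrocytes, stood at 833, 788, 472, 370 and 154 CPM in cerebellum control 1 to 5 and at 112 to 264 CPM (median 162) under the hippocampus label, with cerebellum control 5 inside that range (log2 fold change -1.56, SE 0.42, adjusted p = 0.0457, edgeR). Gfap, the astrocyte filament, stood at 1107, 324, 748, 361 and 143 CPM against 87.1 to 444 CPM (median 154) and was not called (adjusted p = 0.0769). Slc1a2, also on the astrocyte list, went the other way, at 715, 639, 712, 590 and 1150 CPM against 595 to 1369 CPM (median 1246). Its log2 fold change was 0.58 (adjusted p = 0.126, edgeR). Of the 15 astrocyte genes 5 had positive fold changes, and the median was -0.66. The 16 oligodendrocyte genes all had negative fold changes with a median of -0.74 and no call.

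Mt1 and Mt2, metal-binding proteins that respond to stress hormones and zinc, were chosen after their values were seen. Mt2 stood at 196, 197, 179, 149 and 70.7 CPM against 39.1 to 97.9 CPM (median 51.4), and its log2 fold change was -1.35 (SE 0.31, adjusted p = 0.0351, edgeR). For Mt1 the difference was -1.13 on the log2 scale (SE 0.29) with an adjusted p of 0.0417. For both genes cerebellum control 5 lay inside the hippocampus range and the other 4 lay above it.

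Of 46 cytosolic ribosomal protein genes 45 had negative fold changes, with a median of -0.63, and Rpl24 alone was called. The number called lower was 37 without cerebellum control 5, 32 without hippocampus control 4, 21 with offsets for exon length and GC content and 20 by DESeq2, and 0 at the lowest over the single libraries left out. Over all genes tested 212 were called lower with all libraries. That number was 2107 without cerebellum control 5, 1528 without hippocampus control 4, 907 with the offsets and 1057 by DESeq2. Rpl24 stood at 118, 144, 130, 133 and 65.0 CPM against 38.7 to 98.9 CPM (median 47.6, log2 fold change -1.02, SE 0.28, adjusted p = 0.0467, edgeR). Of 30 nuclear respiratory chain genes 29 were negative (median -0.49), and Sdhb, the iron-sulfur subunit of complex II, alone was called (log2 fold change -0.52, SE 0.15, adjusted p = 0.0497). Here the number was 22 without cerebellum control 5, 21 without hippocampus control 4, 13 with the offsets and 20 by DESeq2, and again 0 at the lowest. Sdhb stood at 241, 293, 199, 224 and 181 CPM against 135 to 198 CPM (median 153). The 13 mitochondrially encoded genes were all negative (median -0.61) with no call. For 3 of them every cerebellum library lay above every hippocampus library, as it did for 1.15% of all genes tested. Ribosomal, respiratory and hemoglobin transcripts are short, and the median log2 fold change rose with exon length, from -0.30 in the shortest of 4 equal classes of genes to 0.20 in the longest (Pearson r = 0.28 across 17065 genes, a description over genes). With offsets for exon length and GC content 1306 genes were called, 399 of them higher and 907 lower, and 346 of the 376 were among them. The S100b, Rpl24 and Sdhb calls held only without cerebellum control 5 or hippocampus control 4, and those of Mt1 and Mt2 also without hippocampus control 2 (adjusted p of up to 0.212 without the others, edgeR).

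Capn11 and Mob4 separated the labels in a way that the tissue markers did not. Capn11, a calpain protease known from testis (chr17:45630204-45659325, GRCm38), stood at 14.6, 10.7, 12.8, 11.1 and 9.92 CPM in cerebellum control 1 to 5, and at 1.59, 0.450, 0, 0, 1.22 and 1.36 CPM in hippocampus control 1 to 6. Cerebellum control 5, which lay with the hippocampus libraries for most genes above, was as high as its group here. The log2 fold change was -3.89 (SE 0.72, adjusted p = 0.0134, edgeR). In the other 31 libraries Capn11 reached at most 1.92 CPM under the cerebellum label and 7.83 CPM under the hippocampus label, so the 5 cerebellum control libraries were the highest of all 42.

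Mob4, a subunit of the STRIPAK phosphatase complex (chr1:55131231-55154899, GRCm38), stood at 73.1, 97.9, 72.8, 86.7 and 64.7 CPM against 40.5 to 52.6 CPM (median 47.8). The groups did not overlap (log2 fold change -0.74, SE 0.13, adjusted p = 0.0121, edgeR). Dtd2, a D-aminoacyl-tRNA deacylase, stood at 16.9 to 24.2 CPM against 10.7 to 14.6 CPM (log2 fold change -0.72, SE 0.14, adjusted p = 0.0298), and Tcta, a small membrane protein, at 30.3 to 38.2 CPM against 20.9 to 24.4 CPM (log2 fold change -0.61, SE 0.13, adjusted p = 0.0298). Neither overlapped. Capn11 and Mob4 were called without each single library but cerebellum control 2 (adjusted p = 0.0546 and 0.0654). The Dtd2 call held without 5 of the 11 single libraries and the Tcta call without 4, with adjusted p of up to 0.149.

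The label difference was also measured between the 31 libraries of the 3 other groups, as the mean over those groups. Their levels do not enter the control difference, but the same fit takes its spread and filter from all 42 libraries. None of the 17088 genes was called there by edgeR (0%), DESeq2 called 2, and 1499 had an unadjusted p under 0.05. Of the 164 genes higher in the control libraries 62 had the same sign in the other 31 (37.8%), and 3 of these an unadjusted p under 0.05. Of the 212 lower genes 103 had the same sign (48.6%), 17 of them with an unadjusted p under 0.05. Over all genes tested the signs were the same for 46.8%. The share was thus below that of all genes for the higher genes and close to it for the lower ones.

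List medians are set side by side here, with no test between lists. The immediate-early list had a median log2 fold change of 0.09 in the other 31 libraries beside 2.03 in the control ones. For Nr4a1 it was 0.30 (SE 0.34), for Fos -0.15 (SE 0.32) and for Arc 0.29 (SE 0.36). The serotonin list had -1.27 beside -3.87, and Tph2 had -3.01 (SE 0.88, unadjusted p = 0.00150, adjusted p = 0.414, edgeR). Slc6a5 had -4.59 (SE 1.04, unadjusted p = 7.85e-05, adjusted p = 0.405). The choroid plexus list had 1.67 beside 1.64 and the dentate list 0.65 beside 0.91, whereas the striatal list had -0.83 beside 1.30 and the pituitary list 0.47 beside -3.70.

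The difference between the 2 label differences was tested as an interaction, which shares the 11 control libraries with the first comparison and the 31 others with the second. It was called for 18 genes (0.105%), 10 in the positive and 8 in the negative direction, and all 18 were among the 376. For Gh the control difference was -6.75 and that of the other libraries 2.58 (SE 0.91), with a highest value of 524 CPM in hippocampus control NaKtide 4, and the interaction was -9.33 (SE 1.603, adjusted p = 0.00870, edgeR). For Pomc it was -4.16 (SE 0.70, adjusted p = 0.00870), for Capn11 -4.54 (SE 0.86, adjusted p = 0.0176) and for Mob4 -0.83 (SE 0.15, adjusted p = 0.0176).

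Among the smaller interactions, where Apcdd1 and Selenoo were chosen after their values were seen, Rbm12b1 had 1.23 (adjusted p = 0.0486), Apcdd1, a Wnt inhibitor, 1.37 (adjusted p = 0.0364) and Selenoo, a mitochondrial selenoprotein, 1.07 (adjusted p = 0.0192). For the immediate-early genes the interaction was not called, with Fos at 2.62 (SE 0.67, adjusted p = 0.0736, edgeR) and Nr4a1 at 2.33 (SE 0.70, adjusted p = 0.0827). It was not called for Tph2 either, at -3.52 (SE 1.63, adjusted p = 0.181).

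**Figure D5:**
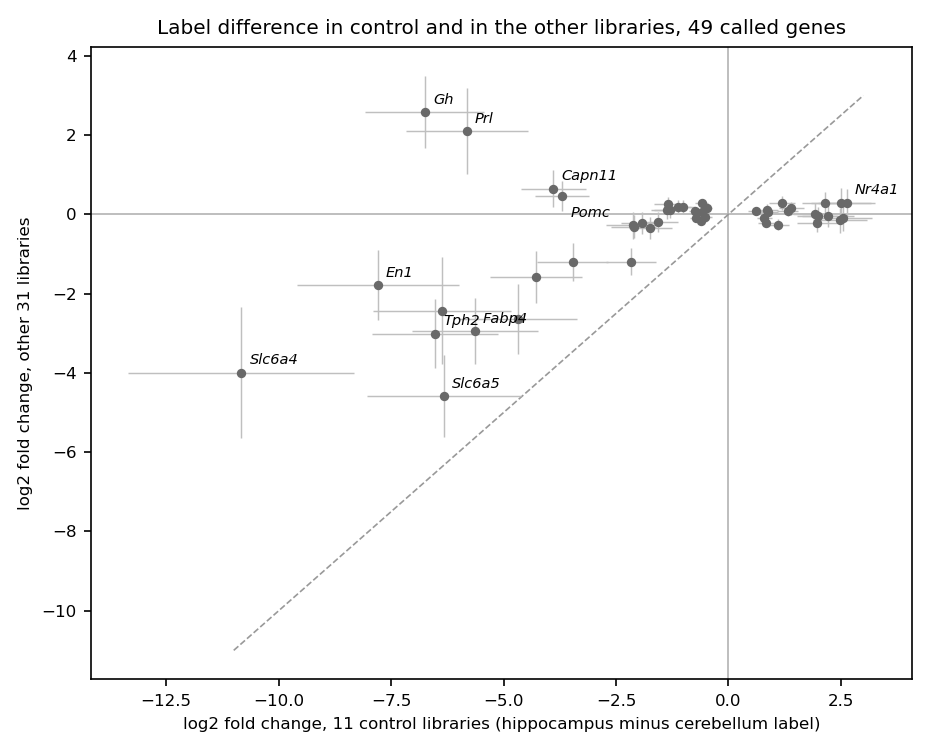
Log2 fold change, hippocampus minus cerebellum label, in the 11 control libraries (x axis) and in the other 31 libraries (y axis) for the 49 called genes described in the text; whiskers are standard errors and the dashed line marks equal values. Serotonin, glycine and fat cell genes are negative on both axes, Gh, Prl, Pomc and Capn11 are negative on x and positive on y, and the immediate-early genes lie near 0 on y.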

How the data were processed

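Per the labels, RNeasy columns gave the RNA, and a Truseq kit that keeps the strand gave the libraries. Trimmomatic 0.38, HISAT2 2.1.0, GRCm38 and DESeq2 1.20.0 stand in the submitters' processing notes. How reads were counted, and on which annotation, is not given in the sources used here. From the authors come deposited tables: raw counts of 54232 genes in 42 libraries, a signal table of normalized counts (each count divided by 1 factor per library, as tested on the files) and FPKM values. Only the raw counts were used; 0 value columns lacked a sample.

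All 42 libraries were fitted as 8 groups with edgeR 4.0.16 (R 4.3.3; TMM factors, the quasi-likelihood test, 17088 genes left by filterByExpr), and the fit was tested on simulated data. Symbols came from the reference tables for 54079 IDs and coordinates from GENCODE M21 for 54165. Named were, among called genes with a symbol and at least 1 CPM on average, the 8 largest rises and falls, the 8 smallest p, the 2 smallest p of each list, and region markers; the text gives part of them and says where a gene was added later. Members, lists and rules were chosen with earlier results of these data known. Library totals (4669374 to 9521002 counts) limit precision for genes near 0. Alternatives were another normalization, DESeq2 1.42.0, no low-count filter, fewer samples, a replicate block, offsets for length and GC, and leaving out libraries. Figures were drawn with matplotlib 3.10.9. Results on some genes are not reported here.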

Additional observations from a re-analysis of the deposited data

Results flagged for a closer look

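Single libraries stood apart from their group in 11 of the 148 groups of values examined for the 74 genes given by library. The cut-off would flag about 1 in 20 groups of normally spread values. That rate is no fair background here, since many of the genes were chosen by their values in these same libraries. Cerebellum control 1 was apart for Gabra6 (20.3 CPM). Cerebellum control 4 was apart for Hcrt (376 CPM) and Cidec (23.4 CPM). Cerebellum control 5 was apart for Rpl24 (65.0 CPM), Mt1 (240.1 CPM) and Mt2 (70.7 CPM), each the lowest of its group, and for Got2-ps1 (2.24 CPM), the highest. Under the hippocampus label, control 2 was apart for Hba-a1 (472 CPM) and Cidec (0.901 CPM), control 4 for Car8, a Purkinje cell protein (2.18 CPM), and control 5 for En1 (0.122 CPM, which is 1 count).

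The label difference in the control libraries differed from that in the other 31 by the interaction test of edgeR for 18 genes, of which 11 are named here; Gstz1, Anapc4, Larp4b, Ddx54, Selenoo and Apcdd1 were chosen after their values were seen. The difference of the log2 fold changes was -9.33 for Gh, -4.16 for Pomc, -4.54 for Capn11, -0.83 for Mob4, -0.87 for Gstz1, a tyrosine breakdown enzyme, -0.62 for Anapc4, a subunit of the anaphase-promoting complex, and -0.65 for Larp4b, an RNA-binding protein. It was 1.23 for Rbm12b1, 0.88 for Ddx54, an RNA helicase, 1.07 for Selenoo and 1.37 for Apcdd1. The part of tissue makeup in these differences was not tested.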

How the results depend on the processing

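The count of 376 genes between the labels ranged from 1 to 4334 over the 11 fits without 1 library. It was 489 with DESeq2 size factors, 11 with no low-count filter, 1 with only the 2 compared groups in the fit, 5 with hippocampus control 5 and 6 summed, 3 without the 4 libraries holding Xist, 0 without cerebellum control 1, 2 and 4 (546 at an unadjusted p under 0.05), 1306 with length and GC offsets and 1705 with DESeq2. With the replicate number as a block it was 0 by edgeR (4033 at an unadjusted p under 0.05), and with the same 10 libraries and no block, an alternative chosen after seeing the data, it was 1. The correlations of same-numbered libraries gave no pairing (-0.27 to 0.16, median 0.15, with 1 of 5 libraries closest to its own number). In the other 31 libraries DESeq2 called 2 genes, and edgeR 0 under each alternative. The interaction count of 18 was 16 with DESeq2 size factors, 6 with no low-count filter, 2 without the Xist libraries and 693 with DESeq2. All 32 genes of the naming rule kept their direction in every alternative, which is no independent support, since they were picked on these same libraries. In these alternatives 238 of 649 values kept their side of the threshold and 411 did not. The cause of these shifts was not tested. Depth limits genes near 0: 1 count was worth 0.122 to 0.203 CPM.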

Other observations

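Some called genes outside the lists fit no region marker, and were chosen after their values were seen. Bc1, a short noncoding RNA of dendrites, stood at 767, 1204, 1065, 746 and 530.3 CPM in cerebellum control 1 to 5 and at 236 to 641 CPM (median 273) under the hippocampus label (log2 fold change -1.36, SE 0.36, adjusted p = 0.0437, edgeR). Rn7sk, the noncoding RNA that holds back transcription elongation, stood at 30.7, 85.6, 51.5, 95.9 and 23.6 CPM against 16.2 to 30.8 CPM (log2 fold change -1.31, SE 0.35, adjusted p = 0.0445). Both calls held only without cerebellum control 5 or hippocampus control 4 among the single libraries left out, and neither RNA carries a usual poly(A) tail. Gchfr, a regulator of the enzyme that makes the cofactor of monoamine synthesis, stood at 3.05, 32.6, 2.29, 1.54 and 0.140 CPM against 0 to 1.01 CPM (median 0.258, adjusted p = 0.0353), with its highest value in cerebellum control 2, the library highest in Tph2.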
